A study of Homo sapiens with 6 samples.

Results

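The amino acid and endoplasmic reticulum (ER) stress response was followed in 10 genes, ATF4, ATF3, DDIT3, DDIT4, ASNS, TRIB3, CHAC1, XBP1, SESN2 and HERPUD1. They were found by symbol among the 21863 gene symbols of a table of RPKM, reads normalized to gene length and to the mapped reads of the library, and each of the 10 had its own line. The table holds 6 libraries of Hep G2, a cell line from a human liver tumor, with 1 total RNA library and 1 Argonaute 2 immunoprecipitation (Ago2-IP) library from each of 3 conditions. Cells in the condition NT were not transfected and carry the label 0 h, and the other cells were collected 24 h after transfection of 5 nM of a double-stranded RNA mimicking miR-195 or miR-497 with Lipofectamine RNAiMAX. The study set RNA of the Ago2-IP fraction against total RNA to look for targets of the 2 microRNAs. No control mimic or mock transfection was among these libraries, and NT differs from the others in its time label as well. Transfection, time and mimic therefore cannot be told apart in a comparison with NT, whereas both mimic libraries share the transfection and the 24 h. With 1 library per condition and fraction there is no replicate check, no test was made, and every interval below is a 95% interval for counting error alone, with no spread between cultures in it.

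When misfolded protein collects in the ER, or amino acids run short, kinases phosphorylate the initiation factor eIF2, most translation slows, and the mRNA of the transcription factor ATF4 is translated more efficiently through its upstream reading frames. ATF4 then turns on genes for amino acid synthesis and for stress regulators such as DDIT3 and TRIB3. In parallel the ER sensor IRE1 splices XBP1 mRNA, and ATF6 is cut to a nuclear factor that raises ER chaperones. Since ATF4 protein and XBP1 splicing are set after transcription, RPKM of these genes shows neither.

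The mimics share the 7 bases of their seed, positions 2 to 8 counted from the 5′ end, which pair with the site TGCTGCT in a 3′UTR. The mature sequences below are those of RefSeq on GRCh38.p14, where both lie on the minus strand of chromosome 17, at chr17:7017667-7017687 for miR-195-5p and chr17:7017979-7017999 for miR-497-5p, and the capitals mark the seed.
hsa-miR-195-5p: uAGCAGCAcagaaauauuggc
hsa-miR-497-5p: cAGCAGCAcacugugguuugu

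A match to the site was found in a 3′UTR of 3 of the 10 genes, ATF3, CHAC1 and SESN2, against 24.1% of all 19680 genes with an annotated 3′UTR (GENCODE release 44 on GRCh37, 4751 genes). The windows below show these matches in capitals, because the members with a match can be read against those without one. They lie on the plus strand at chr1:212792540-212792566 for ATF3, chr15:41248266-41248292 and chr15:41248269-41248295 for CHAC1, and chr1:28608697-28608723 and chr1:28608700-28608726 for SESN2.
ATF3: ctaaacccagTGCTGCTctcccatctc
CHAC1, first: ttccccccagTGCTGCTgctaacccca
CHAC1, second: cccccagtgcTGCTGCTaaccccacac
SESN2, first: gcaagggccgTGCTGCTgctgggcggg
SESN2, second: agggccgtgcTGCTGCTgggcggggca
In CHAC1 and SESN2 the pair of matches overlap, so each gene has 1 stretch that can pair in 2 registers. The ATF3 match is in 2 of 6 annotated 3′UTR transcripts. No 3′UTR of ATF4, DDIT3, DDIT4, ASNS, TRIB3, XBP1 or HERPUD1 had the 7 letters. A match describes the sequence, and pairing there was not measured. A gene was counted, here and below, where any of its annotated protein-coding transcripts held the match, which need not be its main transcript.

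Promoters were searched on both strands, from 250 bases before to 50 after the start of each of 27305 genes (RefSeq, GRCh38.p14), for letters that stress factors are known to bind. The C/EBP-ATF response element TGATGNAA, a composite element that ATF4 can bind with a C/EBP partner, was in 4 of the 10 promoters and in 4.46% of all. The matches are shown in capitals in the direction of transcription. Those of CHAC1 and HERPUD1 read on the opposite strand.
ASNS, chr7:97872458-97872487, minus strand: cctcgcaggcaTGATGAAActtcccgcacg
ATF3, chr1:212565205-212565234, plus strand: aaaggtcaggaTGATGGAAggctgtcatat
CHAC1, chr15:40953251-40953280, plus strand: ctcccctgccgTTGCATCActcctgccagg
HERPUD1, chr16:56931955-56931984, plus strand: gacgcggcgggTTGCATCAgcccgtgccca
The ER stress element ERSE (CCAAT and, after 9 bases, CCACG) and the shorter ERSE-II (ATTGG, any base, CCACG), which ATF6 and XBP1 are known to bind, were in 0.0916% and 0.0696% of all promoters. The first was found in XBP1 and the second in HERPUD1. The letters TGACGTGG, the core of the unfolded protein response element, were in 0.927% of all promoters and in 0 of the 10.
XBP1, chr22:28800598-28800626, minus strand: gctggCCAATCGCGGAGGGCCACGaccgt
HERPUD1, chr16:56932016-56932044, plus strand: cggacgccgATTGGGCCACGttgggagag

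The libraries held an estimated 24734659 (NT), 29341864 (miR-195) and 30968431 (miR-497) mapped reads for total RNA, and 16829853, 13616346 and 10653785 for Ago2-IP in the same order. The reads inferred for genes came to 16264107, 18551075 and 20191632 in total RNA. In Ago2-IP they came to 3050868, 3288427 and 1638197, a smaller part of the mapped reads. Of the liver markers, AFP had an RPKM of 4884 in total RNA of NT and APOB 1199, whereas TTR had 1.52. PTPRC of leukocytes, COL1A2 of fibroblasts and CD3E of T cells were listed at 0 in all 6 libraries. Of the other 3 markers looked at, epithelial EPCAM had 55.6 in total RNA of NT and endothelial PECAM1 0.263, and COL1A1 of fibroblasts had 0.0887 in NT, 0.380 after miR-195 and 0.196 after miR-497. The part of these cell type markers in the results was not tested. Every ratio was compared with the median over all genes, and also with the median of genes of like transcript G+C content (10 groups of equal size), because the change varied with base composition. Across genes whose RPKM reached 1, Spearman's rho between G+C content and log2 change in total RNA was 0.29 after miR-195 and 0.77 after miR-497. In Ago2-IP it was 0.56 and -0.25. These are descriptions over 10215, 10247, 8900 and 8401 genes of the same libraries, and genes are not independent replicates. The part of base composition in the results was not tested beyond this comparison.

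In untransfected cells the members spanned the range from abundant to undetected. XBP1, which encodes the factor made by IRE1 splicing, had an RPKM of 242 in total RNA, higher than 99.1% of the 15224 genes above 0 in that library. ATF4, the central factor of the response, had 149 and lay above 97.9%. HERPUD1, an ER membrane protein that assists degradation of misfolded proteins, had 62.4. ASNS, the enzyme that makes asparagine, had 56.3, and TRIB3, a pseudokinase that restrains ATF4 and AKT signalling, had 51.2. DDIT4, an inhibitor of mTORC1 also called REDD1, had 28.1, and DDIT3, the stress factor CHOP, had 16.0. SESN2, a leucine sensor that also restrains mTORC1, had 9.19, and ATF3, an immediate stress factor of the ATF family, had 3.12. The counting intervals of neighbours in this order depend on read numbers, which ran from 192 for ATF3 to 10746 for XBP1, and the spread between cultures is unknown.

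CHAC1 (chr15:41245160-41248710, plus strand of GRCh37), which degrades glutathione and is a known target of ATF4, was listed at 0 in all 3 total RNA libraries and in Ago2-IP of NT and miR-497. Its value in Ago2-IP of miR-195 was 0.0515, about 1 read for a transcript of the annotated median length of 1204 bases. For that length a count of 0 allows an RPKM of up to 0.101 in total RNA of NT, 0.0849 after miR-195 and 0.0805 after miR-497, taking 3 reads as the limit. CHAC1 was therefore not detectable in total RNA at this depth, and it has no ratio. The other 9 genes had a value above 0 in all 6 libraries.

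**Figure D1:**
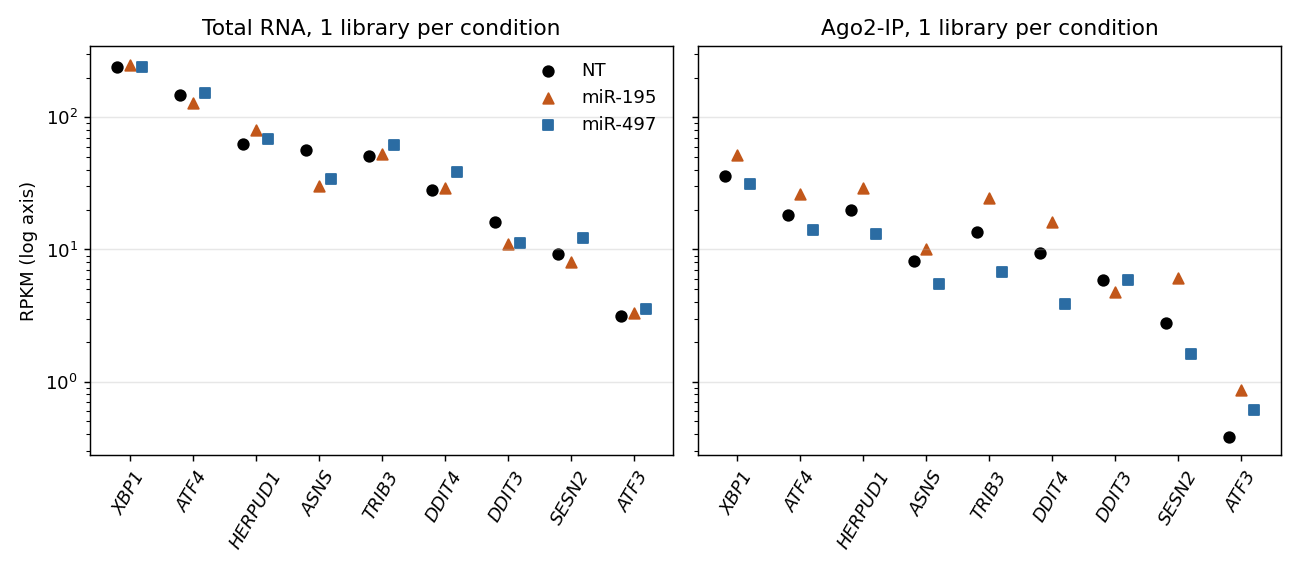
RPKM on a log axis for the 9 detected genes, in total RNA at the left and Ago2-IP at the right, with 1 point per library (circle NT, triangle miR-195, square miR-497). In total RNA the order from XBP1 near 242 to ATF3 near 3.12 is much the same in the 3 libraries, and in Ago2-IP the triangles are the highest point for 8 of the 9 genes.

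In total RNA no member changed 2-fold with either mimic. After miR-195, 0 of 9 members were at least 2-fold higher and 0 at least 2-fold lower than in NT, where 5.81% and 3.2% of 14740 genes were. After miR-497 the counts were again 0 and 0, against 6.67% and 2.11% of 14768 genes. The median log2 change of the members was 0.03 after miR-195 and 0.14 after miR-497, beside 0.02 and 0.09 over all genes. Both comparisons use the same NT library, so their values are given side by side and not as separate support.

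ASNS had the lowest ratio of the 9. Its RPKM was 56.3 in NT, 30.4 after miR-195 and 34.3 after miR-497, and both mimic libraries were below NT. The log2 change was -0.89 (interval -0.99 to -0.79) after miR-195 and -0.71 (interval -0.81 to -0.62) after miR-497. These ratios of 0.540 and 0.610 lay at the 4.2 and 3.9 percentiles of all genes. Among genes of like G+C content the changes were -0.83 and -0.61. ASNS was the single member past a 1.5-fold limit against NT, with 8.62% and 5.53% of all genes that low. ASNS lies at chr7:97480989-97501854 on the minus strand of GRCh37, has 6 pseudogene entries in the annotation and overlaps 2 other annotated genes, and how reads matching several places were counted is not given in the sources used here.

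DDIT3 was also lower in both mimic libraries. Its RPKM was 16.0 in NT, 11.01 after miR-195 and 11.1 after miR-497, and the mimic libraries differed from each other by less than counting error, with a log2 ratio of -0.02 (interval -0.25 to 0.22). Against NT the log2 change was -0.54 (interval -0.77 to -0.32) and -0.52 (interval -0.75 to -0.30), at the 9.7 and 6.6 percentiles. Relative to genes of the same G+C group it was -0.52 and -0.59. DDIT3, at chr12:57910371-57915520 on the minus strand of GRCh37, overlaps 4 other annotated genes. They include MIR616 on the same strand and, on the other, MARS, the gene of a methionyl-tRNA synthetase. Without stated strand, reads in the overlap with MARS cannot be assigned to either gene. MARS itself had a log2 change of -0.44 after miR-195 and -0.02 after miR-497.

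ATF4 mRNA, from chr22:39915700-39918688 on the plus strand of GRCh37, stayed close to its level in NT. Its RPKM was 149 in NT, 129 after miR-195 and 154 after miR-497, so the miR-195 library was the lowest. The log2 change was -0.21 (interval -0.26 to -0.15) after miR-195 and 0.05 (interval -0.00 to 0.10) after miR-497. ATF4 transcripts have a G+C content of 56.7%, and genes in that G+C group had a median change of 0.07 and 0.32. Relative to them ATF4 was at -0.28 (interval -0.33 to -0.22) and -0.27 (interval -0.33 to -0.22). The difference between the mimics, -0.26 as deposited, was -0.00 (interval -0.05 to 0.05) on the same scale. ATF4 has 4 annotated pseudogenes, which its reads could match.

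XBP1, at chr22:29190543-29196585 on the minus strand of GRCh37, varied least in total RNA. Its RPKM was 242, 251 and 240 in the order NT, miR-195 and miR-497, and the highest was 1.05 times the lowest. The log2 change was 0.05 (interval 0.02 to 0.09) and -0.01 (interval -0.05 to 0.03). RPKM counts spliced and unspliced XBP1 together.

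HERPUD1, at chr16:56966054-56978776 on the plus strand of GRCh37 and overlapping 2 other annotated genes, was the member with the highest ratio for miR-195. Its RPKM was 62.4 in NT, 79.6 after miR-195 and 68.5 after miR-497, and both mimic libraries were above NT. The log2 change was 0.35 (interval 0.29 to 0.42) after miR-195 and 0.14 (interval 0.07 to 0.20) after miR-497, or 0.40 and 0.16 relative to its G+C group. After miR-195 it lay at the 78.0 percentile of all genes.

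DDIT4, TRIB3 and SESN2, the members richest in G+C, were higher after miR-497 than in NT as deposited. DDIT4 (58.1% G+C) had an RPKM of 28.1, 29.0 and 38.5 in the order NT, miR-195 and miR-497. TRIB3 (61.5% G+C) had 51.2, 52.4 and 62.3, and SESN2 (59.6% G+C) had 9.19, 7.98 and 12.1. For all 3 genes the miR-497 library was the highest. DDIT4 lies at chr10:74033678-74035794 and TRIB3 at chr20:343479-378203, both on the plus strand of GRCh37. Their log2 changes after miR-497 were 0.46 (interval 0.35 to 0.56) for DDIT4, 0.28 (interval 0.22 to 0.35) for TRIB3 and 0.40 (interval 0.27 to 0.53) for SESN2. Genes in the same G+C groups had medians of 0.46, 0.63 and 0.46. Relative to those medians DDIT4 was at -0.00, TRIB3 at -0.35 and SESN2 at -0.06, so none of the 3 was above genes of like composition.

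SESN2 (chr1:28586029-28609002, plus strand of GRCh37) differed most between the mimics in total RNA. It is an expressed member with 2 overlapping site matches, which are the same for both mimics because they share the seed. Its log2 ratio of miR-195 to miR-497 was -0.60 (interval -0.73 to -0.48), at the 10.5 percentile of all genes, and -0.28 (interval -0.41 to -0.15) relative to its G+C group. Against NT it was -0.20 after miR-195 and 0.40 after miR-497. ATF3 (chr1:212738676-212794119, plus strand of GRCh37), the other expressed member with a match, had RPKM of 3.12, 3.30 and 3.57, and its intervals against NT, -0.20 to 0.36 and -0.08 to 0.47, both included 0. Between the mimics 0 of 9 members passed 2-fold in either direction, against 3.12% of all genes higher and 3.64% lower after miR-195. SESN2 was the single member past 1.5-fold, where 1660 of 15042 genes were lower.

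**Figure D2:**
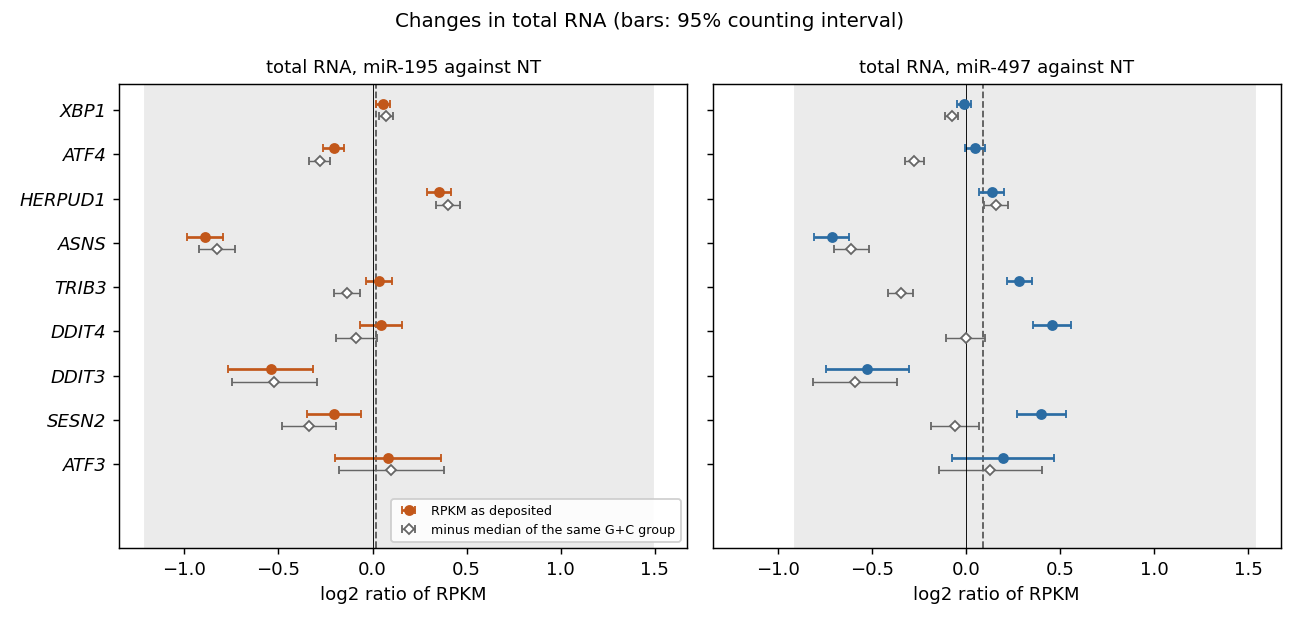
Log2 ratio of RPKM in total RNA for each mimic against NT. Filled circles are the deposited values and open diamonds the values minus the median of genes in the same G+C group, with bars for 95% counting intervals, a dashed line at the median of all genes and a grey band over the middle 95% of genes. All 9 genes lie inside the band, ASNS and DDIT3 are left of 0 on both scales in both panels, and DDIT4, TRIB3 and SESN2 move leftward between the scales after miR-497.

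**Figure D3:**
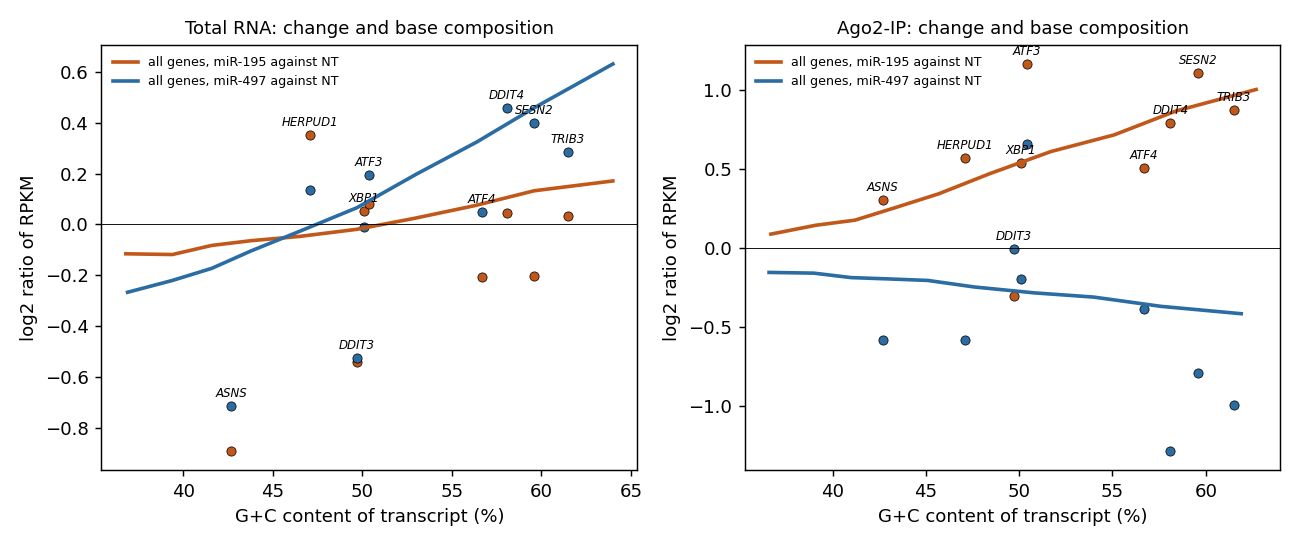
Log2 ratio of RPKM against transcript G+C content in percent, with lines through the medians of all genes in 10 groups of G+C content and points for the 9 members (orange miR-195, blue miR-497, both against NT). In total RNA the blue line runs from -0.27 to 0.63 and DDIT4 and SESN2 lie close to it, and in Ago2-IP the orange line runs upward from 0.09 to 1.002.

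Counting intervals were narrow for abundant genes, so most such genes differed from the median by more than counting error. For the members, the interval lay wholly above the median of their G+C group in 2 of 9 and wholly below in 5 of 9 after miR-195, beside 25.1% and 24.3% of all genes. After miR-497 it was 1 and 5 of 9, beside 20.3% and 20.7%. Among genes whose RPKM reached 20 in NT, the intervals were wholly above in 28.4% and 27.7% and wholly below in 44.2% and 38.5%. Below with both mimics were ATF4, ASNS, DDIT3 and TRIB3, and HERPUD1 was above with both.

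The rest of the pathway was described with 8 lists of 97 genes, of which 96 had a ratio. In total RNA 0 of the 96 were 2-fold lower after either mimic, beside 3.2% (miR-195) and 2.11% (miR-497) of all genes. After miR-195 0 were 2-fold higher, beside 5.81%, and after miR-497 1 was, beside 6.67%: the secreted hormone FGF21, at an RPKM of 0.0457 in NT and 0.109 after miR-497, both at the level of a few reads. The median log2 change of the lists together was -0.09 after miR-195 and -0.01 after miR-497, against 0.02 and 0.09 over all genes.

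Among the 7 stress kinases and sensors, ATF6 stood lowest. ATF6, the ER membrane factor released by proteolysis, had an RPKM of 28.2 in NT, 14.4 after miR-195 and 21.1 after miR-497. Its log2 change was -0.97 (interval -1.08 to -0.86) and -0.42 (interval -0.52 to -0.32), or -0.89 and -0.24 relative to its G+C group. The ATF6 3′UTR holds 2 matches to the site, on the plus strand at chr1:161928501-161928527 and chr1:161932703-161932729. They are shown because ATF6 had the largest change of the sensors, a choice made after the values were seen.
ATF6, first: gtgagcaaaaTGCTGCTttctgccttg
ATF6, second: ttaggattgtTGCTGCTaatatgaata
EIF2AK3, the ER kinase PERK, had log2 changes of -0.01 and -0.18, and EIF2AK4, the amino acid sensor GCN2, had 0.21 and 0.08. EIF2AK2, the kinase PKR that binds double-stranded RNA, had -0.27 and -0.30. EIF2AK1, the heme-regulated kinase, had 0.05 and 0.09. ERN1, which encodes IRE1 and is the other sensor with a match to the site, had -0.22 and 0.20, and ATF6B had 0.09 and 0.45. Relative to the G+C group, EIF2AK4 was above 0 beyond counting error with both mimics, ATF6 was below with both, and EIF2AK3 was not separated from 0 with either.

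In the amino acid branch most genes were lower than genes of like base composition, a scale chosen after seeing the data. Of the 12 genes for amino acid synthesis, 10 were below the median of their G+C group after miR-195 and 10 after miR-497. Their counting intervals were wholly below in 8 and 9, beside the 24.3% and 20.7% of all genes given above, and the list medians were -0.27 and -0.14. Most of these genes had an RPKM of at least 20 in NT, and among all such genes 44.2% and 38.5% were wholly below. Against the median of all genes 8 and 7 of the 12 were lower, and the list median after miR-497 was 0.06, beside 0.09 over all genes. PSAT1, an enzyme of serine synthesis, had an RPKM of 174 in NT, 88.8 after miR-195 and 117 after miR-497. Its log2 change was -0.97 (interval -1.02 to -0.92) and -0.57 (interval -0.61 to -0.53). PSAT1 has 1 match to the site, at chr9:80944256-80944282 on the plus strand, and it is the one gene of this list with a match in a 3′UTR.
PSAT1: attttgccttTGCTGCTactttttcta
GPT2, a mitochondrial alanine aminotransferase, had a change of -0.51 after miR-195, and CTH, which makes cysteine from cystathionine, had -0.53. MTHFD2, a mitochondrial folate enzyme, had -0.47 after miR-497. PYCR1, which makes proline, went the other way after miR-497 as deposited, from an RPKM of 73.9 in NT to 105.7, a log2 change of 0.52 (interval 0.46 to 0.58), and was at -0.11 relative to its G+C group.

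Of the 12 cytosolic tRNA synthetases, which charge tRNAs with amino acids and several of which ATF4 is known to turn on, 11 were below the median of their G+C group with each mimic. The intervals were wholly below in 8 and 9, and the list medians were -0.21 and -0.17. Against the median of all genes 12 and 10 of the 12 were lower. NARS, for asparagine, was the lowest with an RPKM of 150 in NT, 96.3 after miR-195 and 115 after miR-497, a log2 change of -0.63 and -0.38. GARS, for glycine, had -0.39 and -0.26. Most of these genes are abundant, so the backgrounds to read them against are the 44.2% and 38.5% given above for genes whose RPKM reached 20.

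Among the amino acid transporters with a ratio, 7 of 9 after miR-195 and 9 of 9 after miR-497 were below their G+C group, with list medians of -0.15 and -0.17. The counting intervals were wholly below in 7 and 7 of the 9. Most of these genes had an RPKM of at least 20 in NT, where 44.2% and 38.5% of all such genes were wholly below. Against the median of all genes it was 8 and 5 of 9. SLC7A1, a transporter of cationic amino acids, had a log2 change of -0.46 after miR-195, and SLC1A5, a glutamine carrier, had -0.40. SLC38A2, a neutral amino acid transporter induced by starvation, had 0.25 after miR-195 and -0.31 after miR-497.

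The eIF2 factors, their exchange factor eIF2B and the phosphatase subunits had 11 of 13 genes below their G+C group with each mimic and list medians of -0.06 and -0.04. The counting intervals were wholly below in 6 and 5 of the 13. Most of these genes had an RPKM of at least 20 in NT, where 44.2% and 38.5% of all such genes were wholly below. Against the median of all genes 10 of 13 were lower after each mimic. PPP1R15A, the inducible phosphatase subunit GADD34, had log2 changes of 0.15 and 0.03. EIF2B3, a subunit of the exchange factor, had -0.38 after miR-195. The 12 regulators and secreted factors linked to ATF4 were spread to both sides, with medians relative to the G+C group of -0.14 and 0.01. KLHL24 had an RPKM of 1.75 in NT and 3.26 after miR-195, a log2 change of 0.90 (interval 0.62 to 1.18), and NUPR1, a small stress-induced chromatin protein, had -0.50. Matches to the site were also found in 5 of the 13 eIF2, eIF2B and phosphatase genes and 4 of the 12 regulators. They were in 4 of the 10 amino acid transporters and 2 of the 12 tRNA synthetases as well. Whether genes with a match changed otherwise than genes without one was not tested.

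On the scale of the G+C groups the ER lists had medians above 0, where the amino acid lists had medians below 0, and the difference was not tested. After miR-497 this did not hold against the median of all genes, where the chaperones and folding enzymes were 7 above and 10 below and the genes of ER-associated degradation and export 6 above and 8 below. Of the 17 chaperones and folding enzymes, 10 after miR-195 and 12 after miR-497 were above the median of their G+C group, with list medians of 0.03 and 0.04. After miR-195 the counting intervals were wholly above in 6 and wholly below in 5 of the 17. After miR-497 they were wholly above in 6 and wholly below in 3. Of all genes 25.1% and 20.3% were wholly above, and 24.3% and 20.7% wholly below, so the genes of this list lay on both sides. HSPA5, the chaperone BiP whose level is the usual readout of ER stress, had an RPKM of 342 in NT, 318 after miR-195 and 339 after miR-497, and log2 changes of -0.10 and -0.01. DNAJB9, a co-chaperone of BiP, was higher after miR-195 at 0.52 (interval 0.43 to 0.62), and CANX, the lectin chaperone calnexin, was lower at -0.46. SDF2L1 was at 0.79 (interval 0.66 to 0.92) after miR-497, and at 0.16 relative to its G+C group. Of the 17 genes, 2 have a match to the site in a 3′UTR, PDIA6 and P4HB. As deposited, PDIA6 had log2 changes of -0.09 and 0.13, and P4HB had 0.23 and 0.38.

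Of the 14 genes of ER-associated degradation and export, 12 were above the median of their G+C group after miR-195, and 10 of the intervals were wholly above, beside 25.1% of all genes, with a list median of 0.18. After miR-497 it was 9 genes and 5 intervals, beside 20.3% of all genes, with a median of 0.06. WFS1, an ER calcium regulator, had log2 changes of 0.47 and 0.48, and SYVN1, the ubiquitin ligase HRD1, had 0.38 and 0.46. SELS, a selenoprotein of the ER membrane, was lower after miR-195 at -0.38 (interval -0.51 to -0.25). Of the 14 genes, 4 have a match to the site in a 3′UTR of at least 1 annotated transcript, SEL1L, OS9, SELS and WFS1. In how many of their transcripts it lies was not recorded. As deposited, WFS1 and OS9 had log2 changes above 0 with both mimics, and SEL1L and SELS had changes below 0. Relative to the G+C group WFS1 was at 0.34 and 0.02, and SYVN1 at 0.25 and -0.00.

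**Figure D4:**
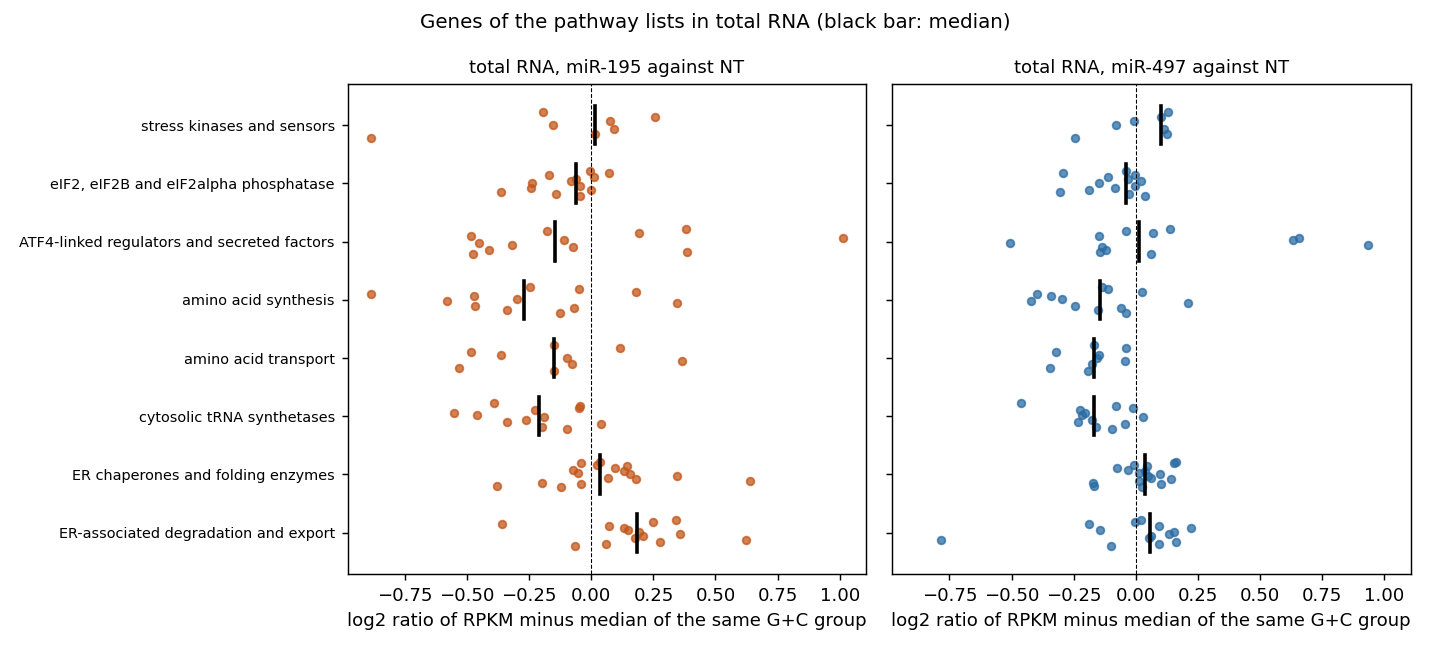
Log2 ratio of RPKM in total RNA minus the median of genes in the same G+C group, for miR-195 (left) and miR-497 (right) against NT, with 1 point per gene of the 8 pathway lists and a black bar at each list median. The medians of amino acid synthesis, transport and tRNA synthetases lie left of 0 in both panels, between -0.27 and -0.14, and those of the ER lists lie right of 0, between 0.03 and 0.18.

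In the Ago2-IP fraction the members were measured with fewer reads, from 16 for ATF3 to 1271 for XBP1. In NT the ratio of Ago2-IP to total RNA was 0.326 for the median gene. ATF4, XBP1, ASNS and ATF3 were well below it at 0.124, 0.148, 0.145 and 0.122, whereas DDIT3 at 0.368, DDIT4 at 0.335, HERPUD1 at 0.317 and SESN2 at 0.304 were near it. TRIB3 was at 0.264. The ratio of ATF4 stayed low with the mimics, at 0.203 after miR-195 and 0.0916 after miR-497, where the median gene had 0.469 and 0.261. Which libraries underwent poly-A selection is not given in the sources used here, so levels in the 2 fractions are not strictly comparable. A smaller part of the mapped reads was also inferred for genes in Ago2-IP. RPKM is normalized to all mapped reads, so this would lower the ratios of Ago2-IP to total RNA.

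The Ago2-IP libraries differed across all genes, with median log2 changes against NT of 0.48 (miR-195) and -0.23 (miR-497), and changes are given below relative to these medians unless stated. After miR-195, 2 of 9 members were at least 2-fold above NT in RPKM as deposited, ATF3 and SESN2, where 23.7% of all genes were, and 0 were 2-fold lower, against 2.58%. After miR-497, 0 were higher, against 3.48%, and 1 was lower, DDIT4, against 6.27%.

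DDIT4 had an Ago2-IP RPKM of 9.39 in NT, 16.3 after miR-195 and 3.86 after miR-497, from 277, 388 and 72 reads. The miR-497 library was the lowest and the miR-195 library the highest. The log2 change was 0.32 (interval 0.09 to 0.54) after miR-195 and -1.06 after miR-497, the latter at the 3.6 percentile of all genes. Relative to the G+C group it was -0.07 (interval -0.30 to 0.15) and -0.91 (interval -1.31 to -0.54).

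TRIB3 followed the same order, with an RPKM of 13.5 in NT, 24.7 after miR-195 and 6.78 after miR-497. Its log2 change was 0.40 (interval 0.24 to 0.56) and -0.77. Against its G+C group TRIB3 was at -0.13 (interval -0.29 to 0.03) after miR-195 and -0.58 (interval -0.83 to -0.33) after miR-497.

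SESN2 had an RPKM of 2.80 in NT, 6.03 after miR-195 and 1.62 after miR-497, from 164, 286 and 60 reads, again highest after miR-195 and lowest after miR-497. Its log2 change was 0.63 (interval 0.35 to 0.92) and -0.56. Relative to the G+C group both intervals included 0, at 0.24 (interval -0.04 to 0.53) and -0.37 (interval -0.83 to 0.06).

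DDIT3 departed from this order. Its Ago2-IP RPKM was 5.89 in NT, 4.76 after miR-195 and 5.87 after miR-497, and it was the single member lower after miR-195 than in NT as deposited. Relative to all genes its log2 change was -0.78 (interval -1.28 to -0.29) after miR-195 and 0.22 after miR-497, and -0.77 and 0.28 relative to the G+C group. ATF3 had RPKM of 0.382, 0.856 and 0.603 from 16, 29 and 16 reads. ATF3 was above the median gene by 0.69 and 0.89, with intervals against the G+C group of -0.37 to 1.53 and -0.15 to 2.04.

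ATF4 had an Ago2-IP RPKM of 18.4 in NT, 26.1 after miR-195 and 14.1 after miR-497, and XBP1 had 35.8, 52.0 and 31.3. Relative to all genes ATF4 was at 0.03 and -0.16 and XBP1 at 0.06 and 0.03. Relative to its G+C group ATF4 was at -0.21 (interval -0.40 to -0.02) after miR-195 and -0.01 after miR-497, and XBP1 at 0.07 and 0.09. HERPUD1 had 19.8, 29.3 and 13.2, with changes of 0.09 and -0.36, and ASNS had 8.15, 10.0 and 5.45, with changes of -0.17 and -0.35.

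**Figure D5:**
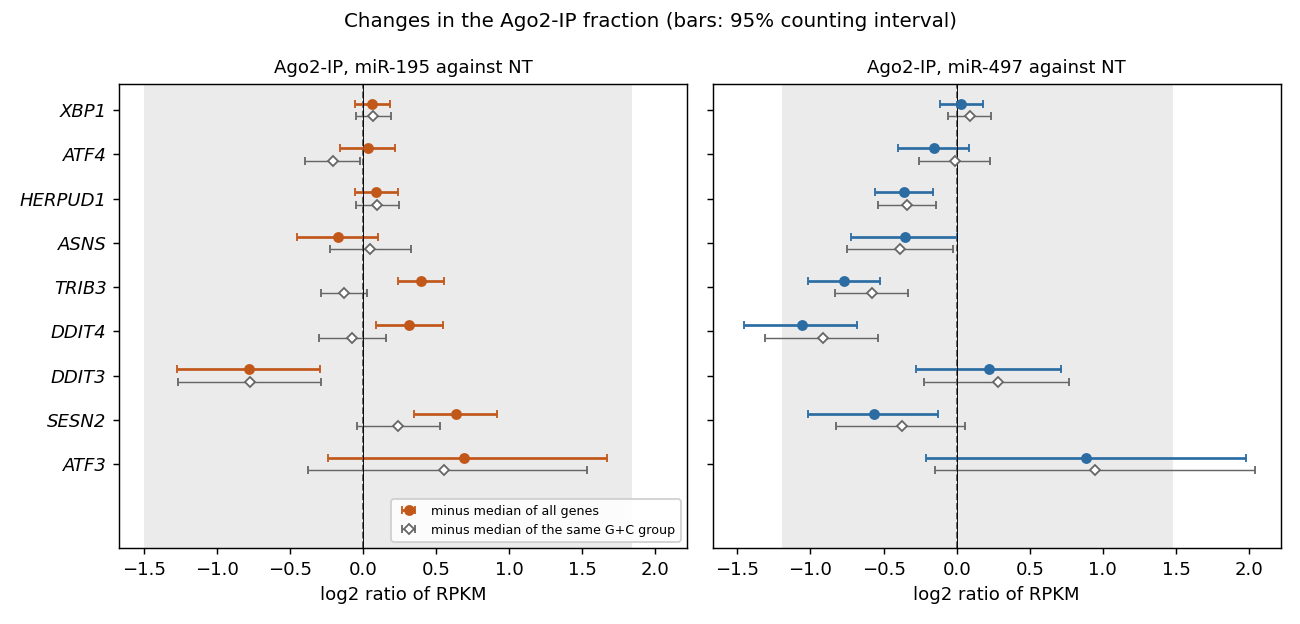
Log2 ratio of RPKM in Ago2-IP for each mimic against NT. Filled circles are values minus the median of all genes and open diamonds values minus the median of genes in the same G+C group, with bars for 95% counting intervals and a grey band over the middle 95% of genes. After miR-497 the circles and diamonds of DDIT4 and TRIB3 both lie left of 0, whereas after miR-195 those of DDIT4 and TRIB3 lie on opposite sides of 0.

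The fold enrichment score, which the study used to rank targets, divides the ratio of Ago2-IP to total RNA with a mimic by the same ratio in NT. For miR-195 the median gene scored 1.38 and 3 of 9 members scored at least 2, SESN2 at 2.48 (interval 2.00 to 3.08), ASNS at 2.28 (interval 1.87 to 2.79) and ATF3 at 2.12 (interval 1.12 to 4.01), where 20.4% of all genes did. None of the 9 scored 0.5 or less, against 3.7%. SESN2 and ATF3 have a match to the site and ASNS has none in a 3′UTR. In the score of ASNS the total RNA term was the larger, with RPKM of 56.3 in NT and 30.4 after miR-195, against 8.15 and 10.04 in Ago2-IP.

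For miR-497 the median gene scored 0.824. No member scored at least 2, against 3.1% of all genes, and 3 scored 0.5 or less, DDIT4 at 0.299 (interval 0.229 to 0.392), TRIB3 at 0.412 (interval 0.346 to 0.491) and SESN2 at 0.438 (interval 0.322 to 0.597), where 16.3% of genes did. The score varied with G+C content across genes, with a Spearman's rho of -0.71 over 8240 genes for the miR-497 score and 0.44 over 8755 for the other. On the log2 scale and relative to the G+C group, DDIT4 was at -1.01 (interval -1.40 to -0.62), TRIB3 at -0.32 and SESN2 at -0.23 for miR-497. On the same scale for miR-195, ASNS was at 0.85 (interval 0.57 to 1.14), SESN2 at 0.54 (interval 0.23 to 0.86) and ATF3 at 0.48 (interval -0.44 to 1.40).

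The likeness of patterns was measured by the root mean square difference of log2 RPKM, centred on the mean of each gene over the 6 libraries, for 8582 genes whose RPKM reached 1 in all 6. The genes nearest to ATF4 were UXT at 0.04, GRB2 at 0.04 and CASP6 at 0.05, where the median gene was at 0.64. The 6 libraries span both fractions, so the gap between Ago2-IP and total RNA enters the measure beside the changes with the mimics. In NT this gap was -3.02 on the log2 scale for ATF4 and -1.62 for the median gene. Likeness in the changes with the mimics alone was not tested. The nearest member to ATF4 was XBP1 at 0.18, at rank 339. The closest members to each other were DDIT4 and TRIB3 at 0.13, where TRIB3 was at rank 5 from DDIT4 and DDIT4 at rank 20 from TRIB3. This measure was not taken relative to G+C groups, and DDIT4 (58.1%) and TRIB3 (61.5%) are both rich in G+C. The part of base composition in their likeness was not tested.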

How the data were processed

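RNA was measured in 6 libraries of Hep G2 cells, 1 per condition and fraction. Single reads of 36 bases were aligned by the authors with ELANDv2 (build hg19), CASAVA 1.7 gave RPKM, and the RPKM values were used as deposited. The gene annotation and the handling of strand are not given in the sources used here. The lines of 28 symbols listed more than once were averaged, which touched no member. Read numbers were inferred from the steps between RPKM values for 9987 of 15487 genes tried (7 of the 10 members) and from annotated median transcript lengths for 8515 others (DDIT3, ASNS and CHAC1 among them). Counting intervals were exact binomial (Clopper-Pearson) for ratios of 2 libraries and normal approximations for the score. They are counting error only, since PCR copies are not independent molecules. The inference was tested on simulated data. A gene was called at 2-fold. G+C content was that of the longest protein-coding transcript in GENCODE release 44, known for 95.0% of genes whose RPKM reached 1 in total RNA of NT and miR-195, and genes were split into 10 groups, a step chosen after seeing the data. Named genes were the 10 members, the kinases and sensors, HSPA5, PPP1R15A, the 3 genes of each other list with the largest change in total RNA per mimic among those whose RPKM reached 1 (fewer are given), and the 3 nearest to ATF4. FGF21 and, for their position or site, MARS, ATF6, PSAT1 and the genes with a match in the ER lists were described further after their values were seen. Members and lists were chosen with earlier results of these data known. Alternatives were pseudocounts of 0.1 and 1, a minimum RPKM of 1, scaling to the median gene, a fold of 1.5 and repeated lines kept apart. Calculations used Python 3.11.15, pandas 2.3.3 and scipy 1.17.1.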

Additional observations from a re-analysis of the deposited data

Results flagged for a closer look

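For 5 results the changes with the mimics against NT lay on opposite sides of the median of all genes with both counting intervals clear of it, each with 1 library, and the difference was not tested. In total RNA SESN2 was at -0.22 with miR-195 and 0.31 with miR-497 on the log2 scale, a difference of -0.53, and XBP1 was at 0.04 and -0.10, a difference of 0.14. In Ago2-IP DDIT4 was at 0.32 and -1.06, a difference of 1.37, TRIB3 at 0.40 and -0.77, a difference of 1.17, and SESN2 at 0.63 and -0.56, a difference of 1.20. Relative to genes of like G+C content, XBP1 in total RNA (0.07 and -0.08) still lay on opposite sides with both intervals clear of 0. SESN2 in Ago2-IP (0.24 and -0.37) also lay on opposite sides, but both intervals included 0. SESN2 in total RNA (-0.34 and -0.06), DDIT4 in Ago2-IP (-0.07 and -0.91) and TRIB3 in Ago2-IP (-0.13 and -0.58) lay below 0 with both mimics. Of these, the intervals of SESN2 with miR-497 and of DDIT4 and TRIB3 with miR-195 included 0.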

How the results depend on the processing

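No paired analysis was possible because each condition and fraction has 1 library. Repeated lines kept apart changed no result, no called member changed sign, and pseudocounts and the minimum RPKM kept the sign of each member change. With a fold of 1.5, 1 member was lower in total RNA in each of the 3 comparisons, 4 were higher in Ago2-IP with miR-195 (43.8% of all genes), 1 higher (8.78%) and 3 lower (19.1%) with miR-497, and 6 had a higher miR-195 score (41.8%). The count of 2 members higher in Ago2-IP with miR-195 became 1 with a pseudocount of 0.1 or a minimum RPKM of 1, and 0 with a pseudocount of 1 or median scaling. Median scaling gave median log2 values of 0.11 for Ago2-IP with miR-195, 0.24 for the miR-195 score and -0.18 for the miR-497 score, with 0 members called in the miR-195 score, and kept the sign of 55 of 63 member values. The comparison with G+C groups, chosen after seeing the data, kept 44 of 63 signs. It gave member medians of -0.077 in total RNA for miR-497 against NT, -0.0003 between the mimics, 0.049 in Ago2-IP with miR-195, 0.0198 for the miR-195 score and 0.17 for the miR-497 score. It left 0 members higher and 0 lower in Ago2-IP, 0 higher in the miR-195 score and 1 lower in the miR-497 score. Depth limits ATF3 in Ago2-IP, with 16 to 29 reads, and CHAC1 everywhere, and the spread between cultures cannot be had from 1 library.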
